A study of Mus musculus with 18 samples.

Results

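The genes described here are 37 genes that cells switch on in response to interferons, followed in 3 adipose depots of obese mice with and without caspase-6. They were chosen by gene symbol from the 25124 genes counted in each depot, with earlier results of these data known. Interferons are secreted proteins that warn cells of infection. Type I interferons (interferon alpha and beta) act through a complex with STAT2 and IRF9 that binds the interferon-stimulated response element (ISRE), whereas interferon gamma acts mainly through the gamma-activated site (GAS). In obese adipose tissue, macrophages and lymphocytes carry much of the inflammatory gene expression, and many interferon-induced genes are also transcribed by adipocytes, endothelial cells and fibroblasts. The question was whether the interferon-induced genes were lower in caspase-6-deficient mice together with the other inflammatory genes, library by library.

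Poly(A) RNA was sequenced from inguinal white adipose tissue (iWAT, subcutaneous), epididymal white adipose tissue (eWAT, visceral) and brown adipose tissue (BAT). Wild-type (WT) mice and global, constitutive *Casp6* knockout (C6KO) mice were male, on the C57BL/6J background, and came from crosses of heterozygous parents. All of them received a high fat diet (HFD) with 60% of its calories from fat for 12 weeks, begun at 10 to 14 weeks of age, so that no group on another diet enters any comparison here. Each depot had 3 WT and 3 C6KO libraries, 18 in all, and a library had 16506034 to 19043523 counts for iWAT, 16717201 to 19139694 for eWAT and 7803108 to 12428683 for BAT. The libraries are bulk tissue, so fewer cells of a type and less RNA per cell cannot be told apart, and the allele was absent from every cell, so a change in adipocytes and one in immune cells cannot be told apart either. Levels are given in CPM, a gene's counts scaled to the TMM-adjusted size of its library (TMM, trimmed mean of M values, corrects for differences in composition), and differences as the log2 fold change of C6KO against WT with its standard error (SE). A gene was called when edgeR's quasi-likelihood test, fitted on all genes of the depot, gave an adjusted p below 0.05 and a fold of at least 1.5.

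The labels were first checked against *Casp6* itself, whose WT libraries held 11.2 to 23.1 CPM over the 3 depots and whose C6KO libraries held 3.07 to 7.98 CPM. Its log2 fold changes for iWAT, eWAT and BAT were -1.51, -1.85 and -1.50 (edgeR's quasi-likelihood test, adjusted p = 0.0751, 0.0132 and 0.0671), and no C6KO library reached a WT library of its depot. Adipocyte markers were abundant in all libraries, with a summed level of 10279 to 38348 CPM for 8 genes. Several libraries stood apart. In iWAT, C6KO-3 lay nearer to WT than the other C6KO libraries did, with 2467 CPM of 20 macrophage markers against 807 and 829 CPM in C6KO-1 and C6KO-2 and 3510 to 3925 CPM in WT. WT-2 had the highest level of 11 T and NK cell markers in each depot, and in BAT it also held 26176 CPM of 5 skeletal muscle genes against 110 to 5399 CPM in the other libraries. Values without one of these libraries are given beside the results they move most.

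The promoter sequences are shown first. The genes were not chosen by their motifs, but genes known to respond to interferons are likely to hold the motifs that carry the signal. The shares below are therefore a description of the set. RefSeq promoter windows (mm10 coordinates, 250 bases before to 50 after each annotated start) were found for 31 of the 37 genes, and were searched on both strands for the ISRE core GAAANNGAAA and the GAS core TTCNNNGAA, where N is any base. The GAS core reads the same on both strands. The ISRE core was present for 15 of these 31 genes (48.4%), against 3.99% of all 27025 genes with a window, 1 of 16 macrophage markers and 3 of 34 other inflammatory genes. The GAS core was present for 9 of the 31 genes (29.0%), against 9.55% of all genes. A match describes the letters only and is not a binding site shown in these mice. The stretches below are on the gene's own strand, 5′ to 3′, with the motif in capitals and positions counted from the first transcribed base as 0. They show *Irf8*, *Oas1a* and *Oas3*, from the genes with the smallest p-values, and *Isg15*, *Ifit3*, *Irgm1*, *Irgm2* and *Igtp*, which were added after their values were seen. Not shown is *Trim30a*, also of the smallest p-values, with an ISRE core on the other strand near each of its 2 starts (2 to 11 and -36 to -27). Also not shown are a GAS core of *Oas1a* (-98 to -90) and another ISRE core of *Ifit3* (-156 to -147).
Irf8, chr8:120736157-120736243, paired GAS cores, -171 to -145 of the upstream of its 2 starts: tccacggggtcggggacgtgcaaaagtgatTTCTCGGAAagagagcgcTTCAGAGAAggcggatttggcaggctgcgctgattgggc
Oas1a, chr5:120907500-120907575, overlapping ISRE cores, -20 to -5: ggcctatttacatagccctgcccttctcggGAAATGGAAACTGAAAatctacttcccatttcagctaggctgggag
Oas3, chr5:120777695-120777764, ISRE core, -75 to -66: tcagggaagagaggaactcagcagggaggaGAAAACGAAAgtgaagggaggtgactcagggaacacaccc
Isg15, chr4:156200845-156200926, overlapping ISRE cores, -78 to -57: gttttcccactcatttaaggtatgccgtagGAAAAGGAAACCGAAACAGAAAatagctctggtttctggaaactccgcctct
Ifit3, chr19:34583377-34583446, ISRE core on the other strand, -122 to -113: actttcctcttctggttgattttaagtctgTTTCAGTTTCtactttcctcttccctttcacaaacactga
Irgm1, chr11:48871405-48871480, overlapping ISRE cores, -30 to -15: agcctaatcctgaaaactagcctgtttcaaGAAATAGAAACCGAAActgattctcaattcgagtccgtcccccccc
Irgm2, chr11:58214872-58214952, GAS core then ISRE core, -75 to -55: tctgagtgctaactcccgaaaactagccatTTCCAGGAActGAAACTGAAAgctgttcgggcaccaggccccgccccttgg
Igtp, chr11:58199481-58199561, GAS core then ISRE core, -45 to -25: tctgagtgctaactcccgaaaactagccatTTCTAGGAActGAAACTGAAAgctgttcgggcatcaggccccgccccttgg
The window of *Irf8* at the start of the counted transcript held neither core, and those of *Irf5*, *Oasl2* and *Psmb9* held neither.

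As a set, the interferon-induced genes had a median a little below WT in iWAT and BAT, where the other inflammatory genes had a lower one. In eWAT the medians of both sets were alike over all libraries, and their order changed with the library left out. The log2 fold changes of the 37 genes had a median of -0.17 for iWAT and -0.48 for eWAT, and the 36 genes tested in BAT one of -0.16. All genes tested had medians of 0.03, -0.01 and -0.03. A lower estimate was seen for 31 of 37 interferon-induced genes in iWAT, 35 of 37 in eWAT and 26 of 36 in BAT. Among all genes tested these counts were 6718 of 14533, 7576 of 14889 and 7328 of 13595. The other inflammatory genes (cytokines, chemokines, Toll-like receptors and their like) had medians of -0.94, -0.46 and -0.99 for iWAT (42 genes), eWAT (42) and BAT (36), and the 20 macrophage markers had medians of -1.51, -0.54 and -1.36. No test compares these lists with each other, so the medians are descriptions. Of the other inflammatory genes, 22, 15 and 22 had a lower estimate at an unadjusted p below 0.05 in the order of iWAT, eWAT and BAT. Among all genes these shares were 9.29%, 7.82% and 8.64%. edgeR's quasi-likelihood test called 4 of the other inflammatory genes lower, all of them in BAT (1.07% of all genes), including *Ccl9*, *Tlr1* and *Tlr13*. No gene of this list was called lower in either white depot. The only one called higher was *Ccl2*, a monocyte chemokine, in eWAT (log2 fold change 0.73, adjusted p = 0.0432 by the same test). That test called no macrophage marker in the white depots either. DESeq2, which fitted 45 of the other inflammatory genes in each depot, called 13, 7 and 12 lower in iWAT, eWAT and BAT. The shares of all genes were 3.53%, 1.22% and 2.62%. It called 2 higher in eWAT (2.77% of all genes). The median of the interferon-induced genes was -0.03 in iWAT without C6KO-1. In BAT it was -0.31 without C6KO-3, -0.03 without C6KO-1 and -0.04 without WT-3. Without iWAT C6KO-3 the medians of that depot were -0.40 for the interferon-induced genes, -1.47 for the other inflammatory genes and -2.34 for the macrophage markers. In eWAT the medians of these lists, in the same order, were -0.24, -0.33 and -0.47 without WT-2. Without eWAT C6KO-1 they were -0.45, -0.30 and -0.48. *Oas3* was not tested in BAT, where it held 0.248 to 1.3 CPM in every library.

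**Figure D1:**
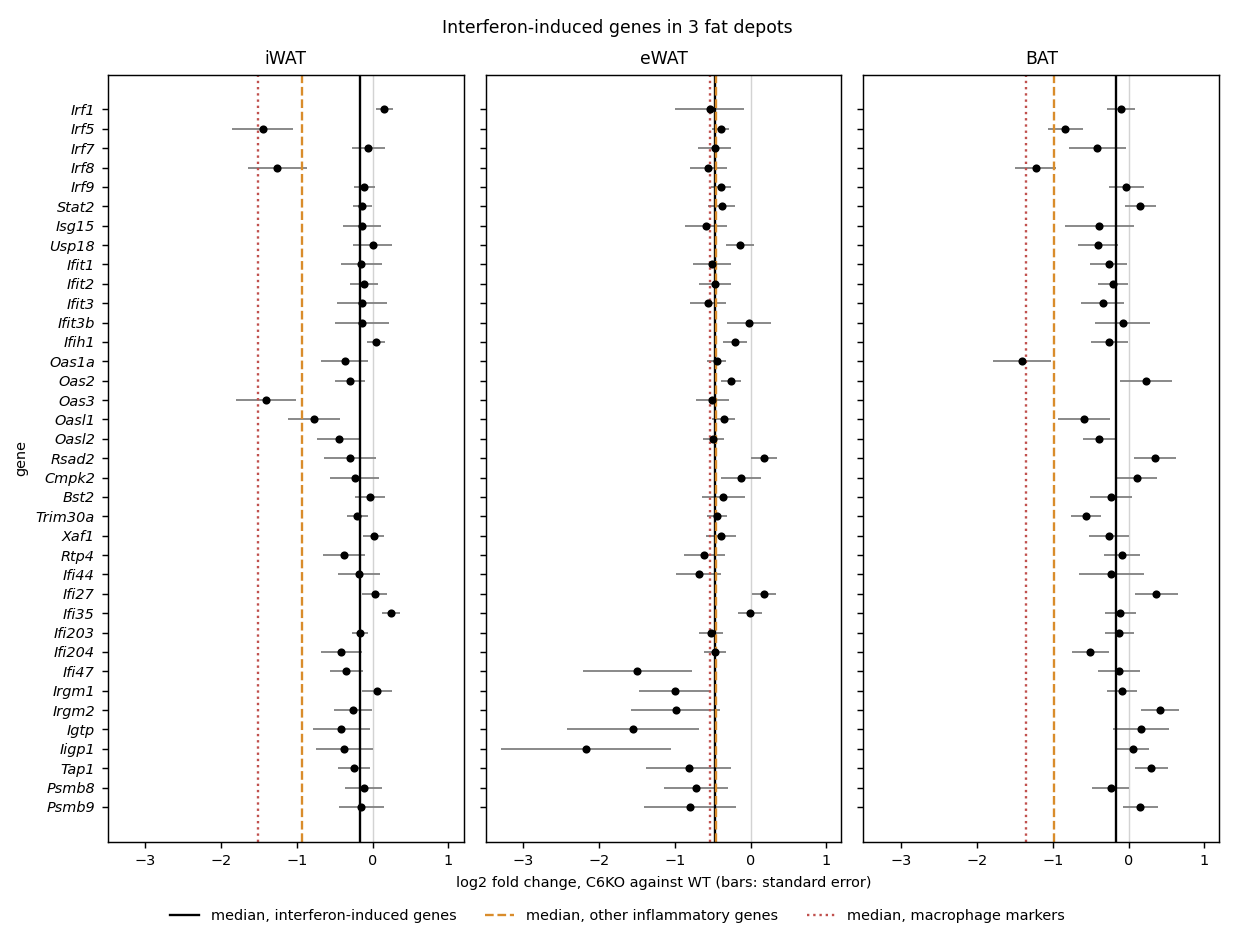
Log2 fold change of C6KO against WT (horizontal axis, points, with bars for the standard error) for each of the 37 genes (vertical axis) in iWAT, eWAT and BAT. Vertical lines mark the medians of the interferon-induced genes (-0.17, -0.48 and -0.16), the other inflammatory genes and the macrophage markers, and in iWAT and BAT the first of these lies to the right of the others.

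No interferon-induced gene was called in any depot by edgeR's quasi-likelihood test. Few genes of any kind passed. In iWAT 0.0206% of all genes tested were called lower and 0.00688% higher. The shares were 0.208% and 0.537% for eWAT, and 1.07% and 0.169% for BAT. At an unadjusted p below 0.05, the genes with a lower estimate were 4 of 37 for iWAT, 11 of 37 for eWAT and 4 of 36 for BAT, against 9.29%, 7.82% and 8.64% of all genes. None was higher at that level in any depot, where 7.25%, 9.81% and 4.56% of all genes were. The share among the interferon-induced genes was therefore near that of all genes in iWAT and BAT and above it in eWAT. These counts moved when 1 library was left out. In eWAT the count was 20 without WT-1 (6.1% of all genes) and 7 without WT-2 (4.88%). In iWAT it was 12 without C6KO-3 (14.6%) and 2 without C6KO-1 (7.91%), and in BAT it was 7 without C6KO-3 (7.35%). DESeq2 called *Irf5*, *Irf8* and *Oas3* lower in iWAT (3.53% of all genes), none in eWAT (1.22%) and *Irf8* in BAT (2.62%). In eWAT *Irf5* and *Oasl2* had DESeq2 adjusted p of 0.0400 and 0.0458 but changed by less than 1.5-fold. DESeq2 called none of the 37 genes higher (1.18%, 2.77% and 1.05% of all genes).

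Read library by library, the lists parted in iWAT and BAT. In iWAT the mean log2 CPM of the 37 genes was 4.85, 5.0 and 4.86 in WT and 4.25, 4.53 and 4.98 in C6KO. C6KO-1 and C6KO-2 were below all WT libraries, whereas C6KO-3 lay inside the WT range although its macrophage markers, at a mean log2 CPM of 6.35, remained below the WT values of 6.85 to 7.07. In BAT the 36 genes had means of 4.14, 4.02 and 4.30 in WT and 3.74, 3.90 and 4.21 in C6KO, so C6KO-3 overlapped with WT. The BAT macrophage markers did not overlap, with 5.21 to 5.49 in WT and 3.62 to 4.07 in C6KO. Of these 20 markers 10 were called lower, where 1.07% of all genes were. Among the 10 were *Adgre1* (F4/80, log2 fold change -1.79) and *Cd68* (a lysosomal macrophage protein, -2.01), each with an adjusted p of 0.00960 by edgeR's quasi-likelihood test. The other inflammatory genes overlapped in neither iWAT nor BAT. Their means were 3.22 to 3.40 in WT and 1.78 to 2.92 in C6KO of iWAT. In BAT they were 2.52 to 2.89 in WT and 1.38 to 1.97 in C6KO. In eWAT the 37 genes had means of 4.96, 5.85 and 5.17 in WT and 4.80, 4.90 and 4.90 in C6KO. All C6KO means were under all WT means there, by a small margin for WT-1 and a wide one for WT-2. The other inflammatory genes of eWAT overlapped by a narrow margin, with a mean of 4.6025 in C6KO-3 and 4.5957 in WT-1.

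**Figure D2:**
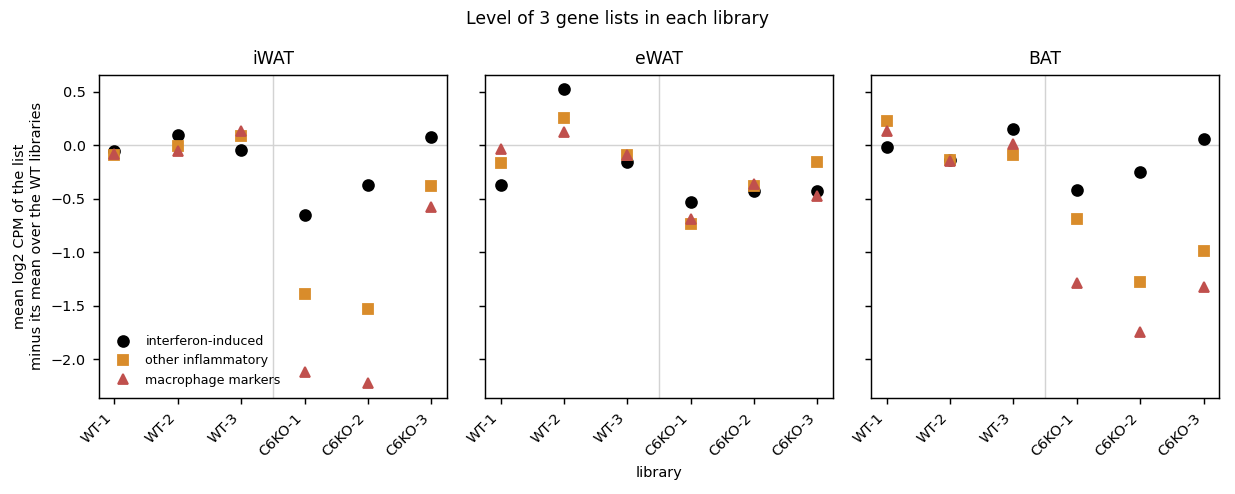
Mean log2 CPM of 3 gene lists in each library (horizontal axis), minus the list's mean over the WT libraries of that depot (vertical axis), with WT to the left and C6KO to the right of the grey line. In iWAT and BAT the macrophage markers and other inflammatory genes of the C6KO libraries sit below the interferon-induced genes, and iWAT C6KO-3 is the nearest of its group to 0 for each list.

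The transcription factors that carry the interferon response had unequal estimates in iWAT and BAT. Their log2 fold changes ran from -1.45 to 0.15 in iWAT and from -1.23 to 0.16 in BAT. In eWAT all 6 estimates, those of *Stat2* and *Irf1* included, were lower and ran from -0.56 to -0.38. IRF5 and IRF8 are expressed mainly in macrophages, dendritic cells and B cells, whereas STAT2, IRF9, IRF7 and IRF1 are present in most cell types and are themselves interferon-induced. *Irf5* held 46.5, 48.2 and 54.8 CPM in the WT libraries of iWAT and 15.1, 9.07 and 30.5 CPM in C6KO. *Irf8* held 36.5, 49.9 and 32.3 CPM in WT and 13.1, 9.45 and 27.1 CPM in C6KO of that depot. For both genes the groups did not overlap, and C6KO-3 was the highest C6KO library. Their log2 fold changes were -1.45 (SE 0.40) and -1.26 (SE 0.39), with adjusted p of 0.187 and 0.206 by edgeR's quasi-likelihood test. Without C6KO-3, *Irf5* was 2.07 lower on the log2 scale and *Irf8* 1.84 lower, and both were called.

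In BAT *Irf8* held 12.7, 16.0 and 9.60 CPM in WT and 6.86, 4.56 and 4.96 CPM in C6KO. *Irf5* held 16.5, 20.3 and 13.7 CPM in WT and 9.22, 11.3 and 7.69 CPM in C6KO. The genotypes again did not overlap, at log2 fold changes of -1.23 (SE 0.27, adjusted p = 0.0742 by edgeR's quasi-likelihood test) and -0.84 (SE 0.23, adjusted p = 0.138). In eWAT *Irf5* was at 141, 174 and 154 CPM in WT and 115, 115 and 127 CPM in C6KO, without overlap, for a log2 fold change of -0.39 (SE 0.11, adjusted p = 0.109 by edgeR's quasi-likelihood test). *Irf8* of eWAT overlapped, with 102, 177 and 113 CPM in WT and 67.8, 89.3 and 109 CPM in C6KO, at -0.56 (SE 0.25, adjusted p = 0.30). The macrophage markers moved beside these genes in each depot, their summed level in eWAT being 13867 to 15776 CPM in WT and 10508 to 11716 CPM in C6KO. No macrophage marker was at 0 in any library, and the part of these markers in the levels of *Irf5* and *Irf8* was not tested. The counted transcript of *Irf5* is not the same RefSeq entry in all 3 tables, so its levels are compared within depots.

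*Stat2*, *Irf7* and *Irf9* overlapped between genotypes in iWAT and BAT, as did *Irf1* in BAT. *Stat2* held 55.6, 59.1 and 52.6 CPM in WT and 46.8, 47.8 and 57.5 CPM in C6KO of iWAT, with a log2 fold change of -0.14 (SE 0.12). In BAT its values were 22.2, 27.1 and 32.8 CPM in WT and 24.0, 34.0 and 33.7 CPM in C6KO, with a log2 fold change of 0.16 (SE 0.21). *Irf7*, the factor that amplifies type I interferon production, overlapped between groups in all 3 depots, with log2 fold changes of -0.06 (SE 0.22), -0.48 (SE 0.22) and -0.41 (SE 0.38) for iWAT, eWAT and BAT. In iWAT *Irf1*, the factor most responsive to interferon gamma, held 72.0, 67.6 and 63.1 CPM in WT and 73.1, 73.8 and 78.8 CPM in C6KO. The C6KO values lay above all WT values by a small margin, for a log2 fold change of 0.15 (SE 0.11, adjusted p = 0.504 by edgeR's quasi-likelihood test). In eWAT *Irf9* was below WT in every C6KO library, at -0.39 (SE 0.14, adjusted p = 0.173 by the same test).

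**Figure D3:**
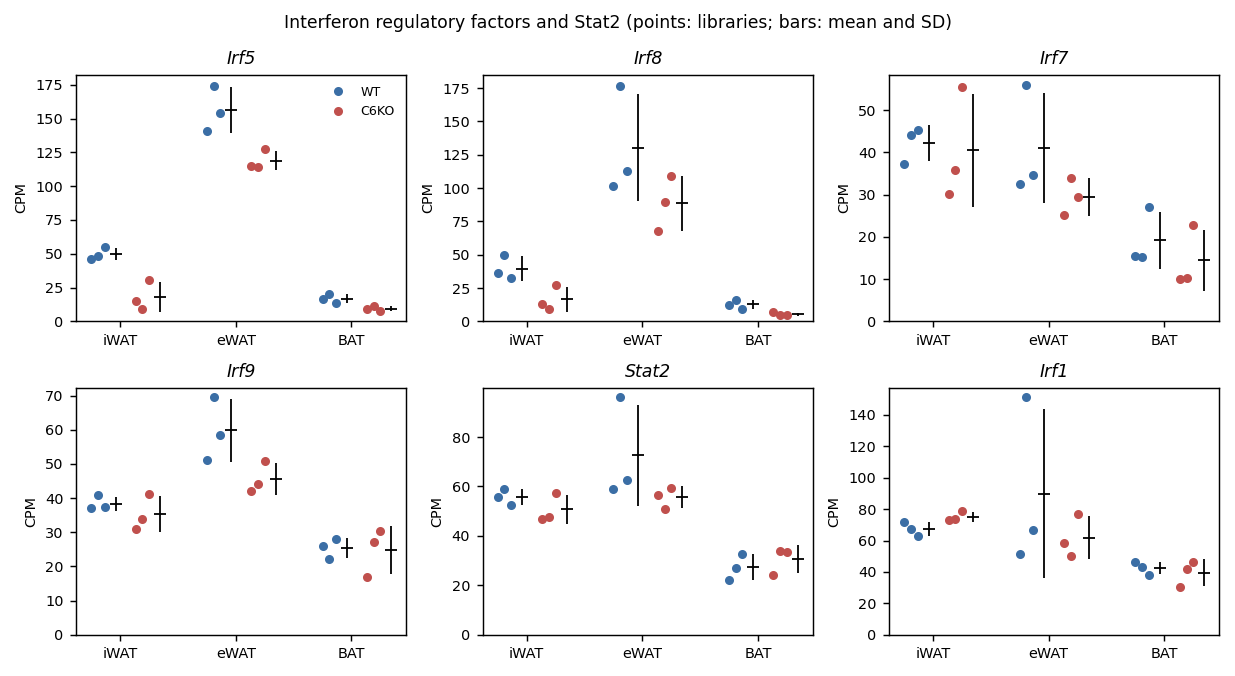
CPM (vertical axes, from 0) of 6 transcription factor genes in the WT and C6KO libraries of the 3 depots (horizontal axes), with points for libraries and bars for the mean and SD (n = 3). The groups of *Irf5* do not overlap in any depot and those of *Irf8* do not overlap in iWAT and BAT, whereas *Irf7* and *Stat2* overlap in each.

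*Isg15* and the *Ifit* genes overlapped between genotypes in each depot. *Isg15* encodes a ubiquitin-like protein that is attached to target proteins, and *Usp18* the protease that removes it. *Isg15* held 8.07, 5.75 and 8.23 CPM in WT and 5.15, 7.70 and 7.13 CPM in C6KO of iWAT, a log2 fold change of -0.14 (SE 0.25). It was at -0.59 (SE 0.28) in eWAT and -0.39 (SE 0.46) in BAT, with overlapping groups. *Ifit3*, of the family that holds back foreign RNA, held 34.2, 33.4 and 31.5 CPM in WT and 15.4, 30.5 and 43.8 CPM in C6KO of iWAT. Its C6KO libraries reached from well below to well above the WT values, and its log2 fold change was -0.15 (SE 0.33). It was at -0.56 (SE 0.24) in eWAT and -0.34 (SE 0.28) in BAT. *Ifit3b* is nearly identical in sequence, so reads may be split between these genes and either value is uncertain.

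Of the 10 genes for RNA-binding proteins, the sensor *Ifih1* (MDA5) and the oligoadenylate synthetase family, which activates RNA decay, 9 in iWAT, 10 in eWAT and 8 of the 9 tested in BAT had a lower estimate. *Oas3* was at 3.12, 4.17 and 5.34 CPM in WT and 1.79, 0.929 and 2.04 CPM in C6KO of iWAT, without overlap, for a log2 fold change of -1.41 (SE 0.40, adjusted p = 0.168 by edgeR's quasi-likelihood test). *Oas1a* was at 3.49, 3.26 and 3.90 CPM in WT and 1.77, 0.911 and 1.36 CPM in C6KO of BAT, also without overlap, at -1.40 (SE 0.38, adjusted p = 0.134). These were low levels, and *Oas1a* belongs to a cluster of close copies. In eWAT *Oas1a* held 17.7, 18 and 18.7 CPM in WT and 13.5, 13.7 and 12.6 CPM in C6KO, a narrow spread in both groups, at -0.45 (SE 0.13, adjusted p = 0.113 by edgeR's quasi-likelihood test). *Oasl2*, of the same family, was at 71.8, 102 and 74.8 CPM in WT and 56.6, 62.4 and 57.9 CPM in C6KO of eWAT, without overlap, at -0.49 (SE 0.14, adjusted p = 0.113 by the same test). Both were lower by less than the 1.5-fold minimum. *Ifih1* held 36.4 to 42.1 CPM in WT and 38.3 to 42.5 CPM in C6KO of iWAT.

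The other antiviral genes were mostly small differences. *Trim30a*, which dampens Toll-like receptor signalling, was the one gene besides *Irf5* whose C6KO libraries were all below all WT libraries in each depot, which was noticed after its values were seen. Its log2 fold changes for iWAT, eWAT and BAT were -0.20 (SE 0.14), -0.45 (SE 0.13) and -0.56 (SE 0.20), with adjusted p of 0.507, 0.116 and 0.262 by edgeR's quasi-likelihood test. In all, C6KO lay wholly below WT for 5 of 37 genes in iWAT (12.2% of all genes), 10 of 37 in eWAT (11.2%) and 7 of the 36 tested in BAT (12.1%). It lay wholly above WT for 2 genes in iWAT, *Irf1* and *Ifi35* (10.9% of all genes), and for none in eWAT (12%) and BAT (8.07%). *Ifi35*, which encodes a leucine zipper protein, held 32.6, 30.3 and 33.8 CPM in WT and 35.5, 37.9 and 40.5 CPM in C6KO of iWAT, a log2 fold change of 0.24 (SE 0.12, adjusted p = 0.360 by edgeR's quasi-likelihood test). *Rsad2* (viperin, which makes a chain-terminating nucleotide) was at 0.17 (SE 0.18) in eWAT, and its groups overlapped. The pair of p200 genes, whose proteins bind DNA, share sequence with neighbouring copies. *Ifi203* had estimates of -0.17, -0.52 and -0.12 for iWAT, eWAT and BAT, and *Ifi204* of -0.41, -0.47 and -0.50.

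The immunity-related GTPases, which attack vacuoles holding pathogens, and the antigen processing genes formed the group with the largest estimates in eWAT, and these rested on 1 library. *Iigp1* held 43.3, 446 and 46.0 CPM in WT and 42.6, 34.6 and 41.4 CPM in C6KO. *Igtp* held 24.9, 159 and 27.6 CPM in WT and 21.6, 21.0 and 29.8 CPM in C6KO. *Tap1*, the transporter that brings peptides to class I molecules, held 51.9, 192 and 76.0 CPM in WT and 49.2, 51.8 and 80.7 CPM in C6KO. In each case WT-2 was far above all others and WT-1 and WT-3 were close to C6KO. All 8 genes of the group (*Ifi47*, *Irgm1*, *Irgm2*, *Igtp*, *Iigp1*, *Tap1*, *Psmb8* and *Psmb9*) were highest in eWAT WT-2, where 19.9% of all genes had their highest value. This was not particular to the group, as 30 of the 37 interferon-induced genes (81.1%) were highest in that library. The log2 fold changes ran from -2.18 (*Iigp1*, SE 1.12) to -0.72 (*Psmb8*, SE 0.42), with a median of -0.99. Without WT-2 the median of the 8 genes was -0.16, that of *Iigp1* alone was -0.18, and the median of all 37 genes was -0.24 where it had been -0.48. The other 29 genes had a median of -0.45 with all libraries and of -0.27 without WT-2.

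The same library was also highest for *Cxcl10* and for T and NK cell, dendritic cell and macrophage markers. It was not highest for B cell or plasmacytoid dendritic cell markers. *Cxcl10*, a chemokine for T cells and a target of interferon gamma, held 4.60, 32.5 and 6.24 CPM in WT and 4.68, 3.81 and 5.97 CPM in C6KO of eWAT. *Ifng* was not tested, at 0.295, 1.37 and 0.408 CPM in WT and 0, 0.0537 and 0.290 CPM in C6KO. The 11 T and NK cell markers summed to 34.8, 134 and 60.4 CPM in WT and 19.8, 16.5 and 78.8 CPM in C6KO. The 6 dendritic cell markers summed to 29.2, 87.7 and 42.3 CPM in WT and 28.6, 29.8 and 40.4 CPM in C6KO. For the 20 macrophage markers the sums were 14476, 15776 and 13867 CPM in WT and 10508, 11716 and 10828 CPM in C6KO. WT-2 was thus highest on each of these measures. The 3 plasmacytoid dendritic cell markers summed to 4.48 CPM in WT-2 and 4.52 CPM in C6KO-3. The 6 B cell markers summed to 38.8, 104 and 237 CPM in WT and 28.8, 28.7 and 313 CPM in C6KO, with WT-3 and C6KO-3 highest. All 11 T and NK cell markers had a lower estimate in C6KO, and none was at 0 in any eWAT library. edgeR's quasi-likelihood test called none of them, with 1 at an unadjusted p below 0.05, and DESeq2 called *Cd8a* lower. The part of lymphocytes, dendritic cells and macrophages in the eWAT values was not tested. In iWAT WT-2 again had the highest level of 6 of the 8 GTPase and antigen processing genes (14.8% of all genes), such as *Iigp1* at 120 CPM against 45.2 to 70.7 CPM in the other 5 libraries. In BAT, where WT-2 had the most T and NK cell marker RNA, 7 of the 8 genes were highest in C6KO-3 (11.9% of all genes).

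**Figure D4:**
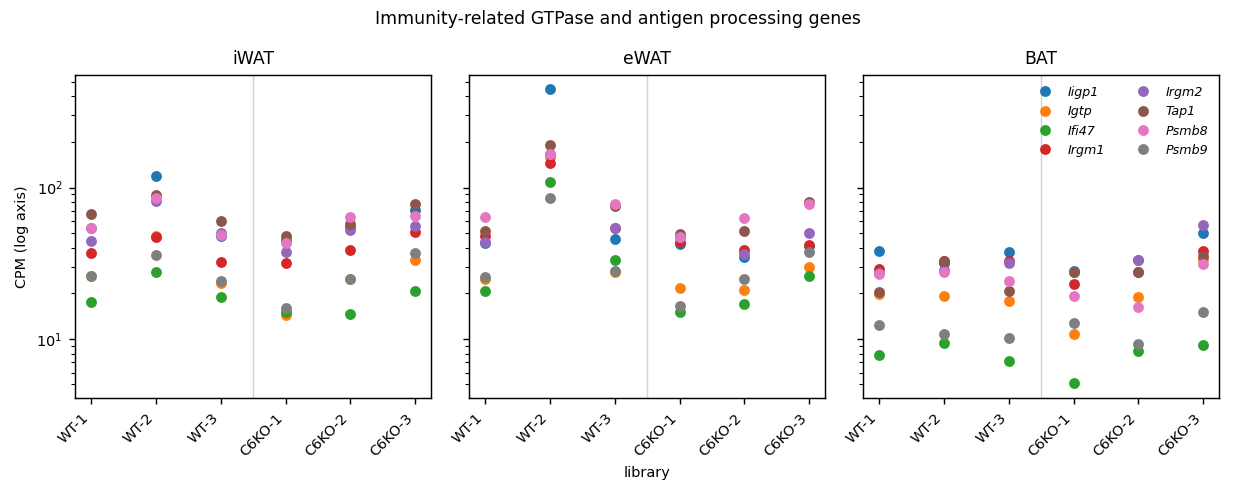
CPM on a log axis (vertical) of 8 immunity-related GTPase and antigen processing genes in each library (horizontal), with WT to the left and C6KO to the right of the grey line in iWAT, eWAT and BAT. In eWAT the WT-2 points lie above all other libraries, *Iigp1* at 446 CPM, and without that library WT and C6KO overlap for all but *Iigp1* and *Irgm1*.

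In BAT the log2 fold changes of the GTPase and antigen processing genes had a median of 0.10, and 2 of the 3 genes with the smallest p-values among the higher estimates came from this group. *Irgm2* held 27.4, 28.6 and 31.8 CPM in WT and 27.6, 33.3 and 56.2 CPM in C6KO, at 0.41 (SE 0.25, adjusted p = 0.536 by edgeR's quasi-likelihood test). *Tap1* held 20.5, 32.5 and 20.6 CPM in WT and 27.7, 27.7 and 35.5 CPM in C6KO, at 0.30 (SE 0.22, adjusted p = 0.620). The groups overlapped for both. Without C6KO-3 the median of the 8 genes was -0.25.

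*Ifi27* encodes a small mitochondrial and nuclear envelope protein and had the highest level of the set in each depot. In BAT it held 1317, 558 and 978 CPM in WT and 1211, 1157 and 1313 CPM in C6KO, with WT-2, the library rich in muscle RNA, lowest. Its log2 fold change was 0.37 (SE 0.28, adjusted p = 0.644 by edgeR's quasi-likelihood test) in BAT, where it was 0.10 without WT-2 and 0.69 without WT-1, 0.02 (SE 0.16) in iWAT and 0.17 (SE 0.15) in eWAT.

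Upstream of these genes, little interferon RNA was counted. Of 13 genes for interferons and their receptors, 6 were tested in iWAT and 5 in eWAT and BAT, neither edgeR's quasi-likelihood test nor DESeq2 called one (1, 1 and 1 lower and 1, 1 and 0 higher at an unadjusted p below 0.05), and the interferon genes themselves were under the filter on low counts in each depot. *Ifnb1* had 0 counts in all 18 libraries. An approximate upper limit of 3 counts, set for a count of 0 from counting error alone, would be 0.157 to 0.384 CPM. *Ifng* had 0 counts in BAT and up to 0.293 CPM in iWAT. Of 13 signalling genes (such as the JAK kinases and their regulators), edgeR's quasi-likelihood test called none in any depot, with 1, 3 and 1 lower and 2, 1 and 0 higher at an unadjusted p below 0.05, and DESeq2 called *Ptpn6*, a phosphatase of blood cells, lower in iWAT and BAT. Of 15 genes for sensors of foreign nucleic acids and their adaptors, edgeR's quasi-likelihood test called none, with 3, 4 and 5 lower at an unadjusted p below 0.05 in iWAT, eWAT and BAT. DESeq2 called *Tlr7* lower in iWAT and *Tlr7* and *Tmem173* (STING) lower in BAT. *Tlr7* and *Ikbke* were among the genes at an unadjusted p below 0.05 in each depot. Of 49 further interferon-induced genes, 48, 48 and 43 were tested, with median log2 fold changes of -0.13, -0.31 and -0.15. Without iWAT C6KO-3 the first was -0.28, and without eWAT WT-2 the second was -0.12. The BAT median was -0.25 without C6KO-3, -0.01 without WT-3 or C6KO-1, -0.09 without C6KO-2 and -0.10 without WT-2. In BAT edgeR's quasi-likelihood test called *Slfn2*, a regulator of immune cell quiescence, and no other gene of this list in any depot. DESeq2 called 3 lower in iWAT (*Mx1*, *Ifi207*, *Slfn2*), 2 in eWAT (*Mx1*, *Ddx60*) and 2 in BAT (*Slfn2*, *B2m*). *Slfn2* held 14.3, 18.2 and 15.2 CPM in WT and 4.61, 5.55 and 6.91 CPM in C6KO, at -1.48 (SE 0.23, adjusted p = 0.0205 by edgeR's quasi-likelihood test). *Mx1* was at -1.34 (SE 0.38, adjusted p = 0.168) in iWAT and -1.30 (SE 0.45, adjusted p = 0.190) in eWAT by the same test, and was not tested in BAT.

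Whether the effect of the genotype differed between depots was tested for each gene in a fit of all 18 libraries. The labels do not say whether libraries of different depots came from the same mouse, and this fit and the comparison of depots in WT mice took all libraries as independent. No interferon-induced gene was called in any of the 3 tests, among 0%, 0.183% and 0.536% of all genes called for eWAT against iWAT, BAT against iWAT and BAT against eWAT. At an unadjusted p below 0.05 there were 2 genes (*Irf5*, *Irgm1*), 1 gene (*Oas1a*) and 3 genes (*Oas1a*, *Irgm2*, *Iigp1*), against 5.48%, 9.93% and 11.2% of all genes. DESeq2 called none of the 37 in these tests, with 2, 1 and 6 genes at an unadjusted p below 0.05. The log2 fold change of *Irf5* was 1.05 higher in eWAT than in iWAT (SE 0.41, adjusted p = 0.890 by edgeR's quasi-likelihood test).

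More of the 37 genes were called between depots than between genotypes. The depot tests used the fit of all 18 libraries, in which the genotype tests called *Irf5* in iWAT, none in eWAT and *Oas1a* in BAT. Depot and library handling cannot be told apart in these comparisons, and the BAT libraries had fewer counts than the others. In WT mice 10 of the 37 genes were called higher in eWAT than in iWAT and 1 lower, where 12.8% and 12.9% of all genes were. In BAT 20 genes were called lower than in iWAT and 1 higher, where 18.7% and 20.1% of all genes were. Against eWAT, 26 genes were lower in BAT and 1 higher, where 23.6% and 25% of all genes were. The 37 genes had median log2 differences of 0.32 for eWAT against iWAT, -0.77 for BAT against iWAT and -1.09 for BAT against eWAT. The levels per kb below were scaled within each depot, so their ratios differ from the folds of the 18-library fit. For *Irf8* that fit gave a fold of 2.96 for eWAT against iWAT. The gene that went the other way was *Ifi27* each time, at 911 CPM per kb of transcript in BAT, 274 in iWAT and 182 in eWAT. *Irf8* had the steepest order among the transcription factors, at 38.7 CPM per kb in eWAT, 11.7 in iWAT and 3.78 in BAT, and all 3 differences were called. *Stat2* was at 16.3, 12.5 and 6.15 CPM per kb in the same order, and the step from eWAT to iWAT was not called. *Oas3* was at 2.23, 0.895 and 0.196 CPM per kb, the lowest level of the set in iWAT and BAT. Without eWAT WT-2, 6 genes were called higher in eWAT than in iWAT, and without BAT WT-2, 12 were called lower in BAT than in iWAT. *Irf5* and *Iigp1*, which are included in these counts and medians, were counted on other transcripts between depots. Over genes with the same transcript in all 3 tables, 9 were called higher in eWAT than in iWAT, 19 lower in BAT than in iWAT and 25 lower in BAT than in eWAT.

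**Figure D5:**
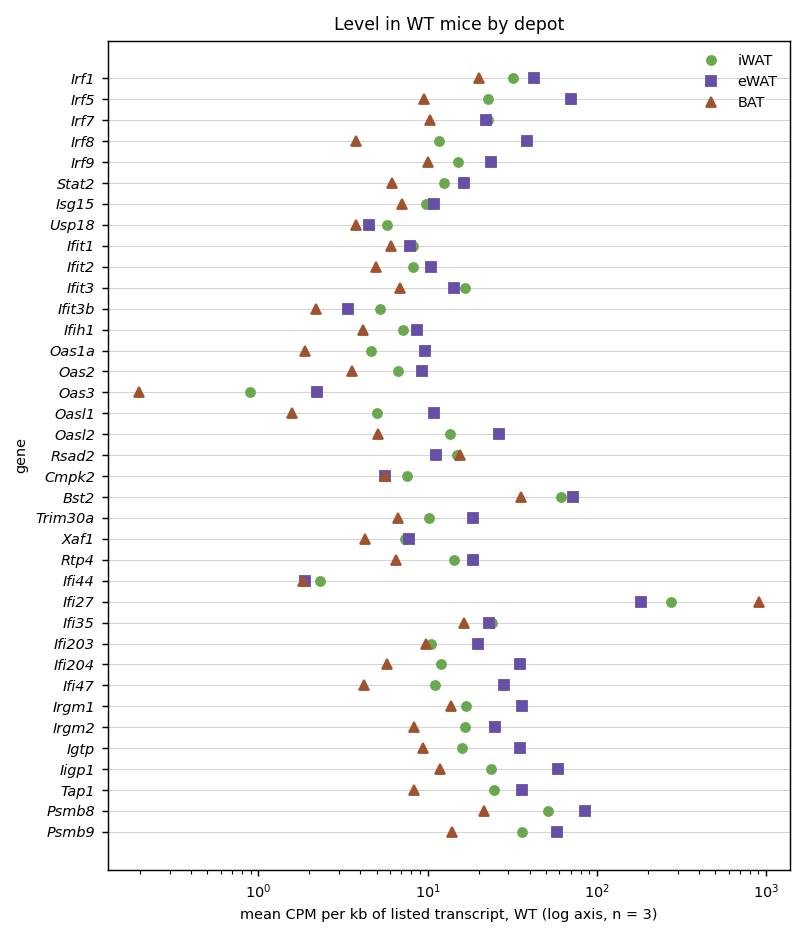
Mean level of each of the 37 genes (vertical axis) in the 3 WT libraries of each depot, in CPM per kb of the listed transcript on a log axis (horizontal). CPM was scaled within each depot. BAT is lowest for most genes, and *Ifi27*, at 911 CPM per kb in BAT against 274 and 182 in iWAT and eWAT, is the highest in every depot.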

How the data were processed

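The deposited files were 1 table of raw counts per gene for each depot, which per the study's methods were made by STAR alignment to mm10 and HOMER counting of exons, with 1 transcript kept per gene; the submitters' processing notes also name DESeq2. Samples were mapped to columns by title within each depot's table. HOMER kept another transcript in at least 1 table for 2619 genes, among them *Irf5* and *Iigp1*. Strandedness is not given in the sources used here.

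The counts were tested per depot with edgeR 4.0.16 (R 4.3.3, filterByExpr, TMM factors, robust quasi-likelihood fit, Benjamini-Hochberg adjustment over all genes tested), 3 C6KO against 3 WT. A fit of all 18 libraries gave the tests between depots. DESeq2 1.42.0 was an alternative, beside other scalings, filters, a block for replicate number and leaving out each library. CPM used library sizes adjusted by the TMM factors of each depot's own fit. List means averaged log2 CPM after a prior count of 2 was added. The scripts were tested on simulated data. Depth limits precision for low genes in BAT most.

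The members and gene lists were chosen with earlier results of these data known. Members named with values were the 3 with the smallest p in each direction and depot (2 higher ones in eWAT), and *Stat2*, *Irf7*, *Irf8*, *Irf5*, *Isg15*, *Ifit3* and *Tap1*; others were named after their values were seen. Libraries of a group are separate samples, and per the methods the cohorts of different genotypes were littermates and cagemates. The p-values set the difference between groups against the spread between libraries. Figures were drawn with matplotlib 3.10.9. Some genes of the comparison lists are not reported here by name.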

Additional observations from a re-analysis of the deposited data

How the results depend on the processing

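The medians of the 37 genes stayed below 0 in each depot under every alternative run. The number called lower, 0 in each depot, changed with the tool and the libraries. In iWAT it was 3 with DESeq2, 1 with all 18 libraries in one fit (*Irf5*), and 0 to 6 when 1 library was left out, the 6 (*Irf5*, *Irf8*, *Oas3*, *Oasl1*, *Oasl2*, *Rsad2*) without C6KO-3, when 951 of all genes were called lower where 3 had been. In eWAT it was 1 (*Rtp4*) with the replicate block and 0 to 1 when 1 library was left out (*Ifit3* without C6KO-2). In BAT it was 1 with DESeq2 (*Irf8*) and 1 with all 18 libraries (*Oas1a*). The test of eWAT against iWAT for the effect of the genotype called 0 to 1 gene when 1 library was left out (*Irf5* without iWAT C6KO-3). For WT depots, the genes lower in eWAT than in iWAT were 0 under scaling by total counts and 0 to 1 when 1 library was left out, and those higher were 6 to 11; those lower in BAT than in iWAT were 12 to 22, and those higher in BAT than in eWAT 1 to 2. Estimates near 0 changed sign in iWAT for *Ifih1* (-0.021 under total counts). When 1 library was left out, the log2 fold changes ran from -0.0089 to 0.096 for *Ifih1*, from -0.38 to 0.12 for *Irf7*, from -0.29 to 0.014 for *Isg15* and from -0.55 to 0.17 for *Ifit3* of iWAT, and from -0.021 to 0.28 for *Ifi27* of eWAT. The cause of these changes was not tested. Same-numbered libraries did not deviate together in every pair (iWAT correlations 0.04, 0.02 and 0.03; eWAT 0.17, -0.10 and 0.16; BAT -0.29, -0.60 and -0.26), so the block is given only here. Depth limits *Oas3* and *Ifng* in BAT most.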
